A study of Mus musculus with 8 samples.

Results

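The genes examined were 33 genes that mark microglia and macrophages, taken as an index of how much RNA of these cells each neuronal culture held. They were listed by name, as genes known to mark these cells, at a time when results from these libraries were already known. All 33 were matched by Ensembl identifier to a row of the count table, which held 32726 identifiers. Low counts removed 9 of them from the tests, leaving 24 among 16272 tested genes.

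RNA sequencing had been carried out to ask which transcripts change in neurons without NUAK1, an AMPK-related kinase that acts in axon branching. The data comprised 4 Nuak1 knockout (KO) and 4 wild-type (WT) libraries of poly-A RNA from cultured embryonic mouse neurons at day 5 in vitro, numbered as in the labels (KO1 to KO4, WT1 to WT4). The labels name cortex or hippocampus for every library, whereas the study describes cortical neurons kept in serum-free medium. The study's methods describe 4 animals per condition, so the libraries are treated as separate cultures. The mice were kept on a C57Bl/6JRj background and the knockout is constitutive, so every cell type of a KO culture carried it, microglia included. The labels add a strain label, whose meaning they do not explain, and a sequencing lane. KO1, KO2 and KO3 carried strain label BJ, KO4, WT2 and WT4 carried BK, WT1 carried BO and WT3 carried BQ. Lane A held KO1, KO4, WT1 and WT3, and lane B held the other 4 libraries.

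Microglia are the resident macrophages of the brain. They come from yolk sac progenitors that enter the embryonic brain, and they are therefore not made by the neural progenitors that give rise to cortical neurons and astrocytes. Their survival depends on the receptor CSF1R and its ligands CSF1 and IL-34, and their identity on the transcription factors SPI1 (PU.1) and IRF8. They sense neurons through receptors such as CX3CR1 and P2RY12, tag material with complement C1q and clear it through TREM2, the adaptor TYROBP and lysosomal proteins. Neuronal cultures usually hold few of them. In a bulk library, fewer cells of a type and less RNA per cell cannot be told apart, so the values below are levels of RNA and not counts of cells.

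Library totals ranged from 31247078 to 67155004 counts, with a median of 39224504. Nuak1 checked the labels, with between 86 and 102 counts in each KO library and between 1612 and 4598 in each WT library. Ddx3y, a Y-linked gene, had 4192 counts in KO3 and 3259 in WT4 and at most 4 in any other library. KO1 and WT1 stood apart from the rest on the surrogate variable of the model, at -0.56 and -0.62 against 0.05 to 0.39 in the other libraries.

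The member genes together took a very small and very uneven share of the libraries. Their summed level was 38.7, 98.6, 132.8 and 15.1 CPM (counts scaled to the library total) in KO1 to KO4, and 20.1, 27.1, 15.4 and 69.1 CPM in WT1 to WT4. KO3 and KO2 were highest and WT4 came next, whereas KO4 was the lowest of all libraries and lay beside WT3. The genotypes therefore overlapped over the whole WT range. KO libraries averaged 71.3 ± 54.0 CPM (SD, n = 4), and WT libraries 32.9 ± 24.6 CPM (SD, n = 4), a 2.17-fold difference of means. The highest library exceeded the lowest 8.81-fold, a span that lay within the KO group alone, and within WT the span was 4.49-fold. Counting error was small beside these differences, the 95% Wilson interval being 129.7 to 136.0 CPM in KO3 and 13.9 to 16.3 CPM in KO4. KO3 and WT4, the libraries with Ddx3y counts, were the highest of their genotypes, and the part of this in the result was not tested.

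**Figure D1:**
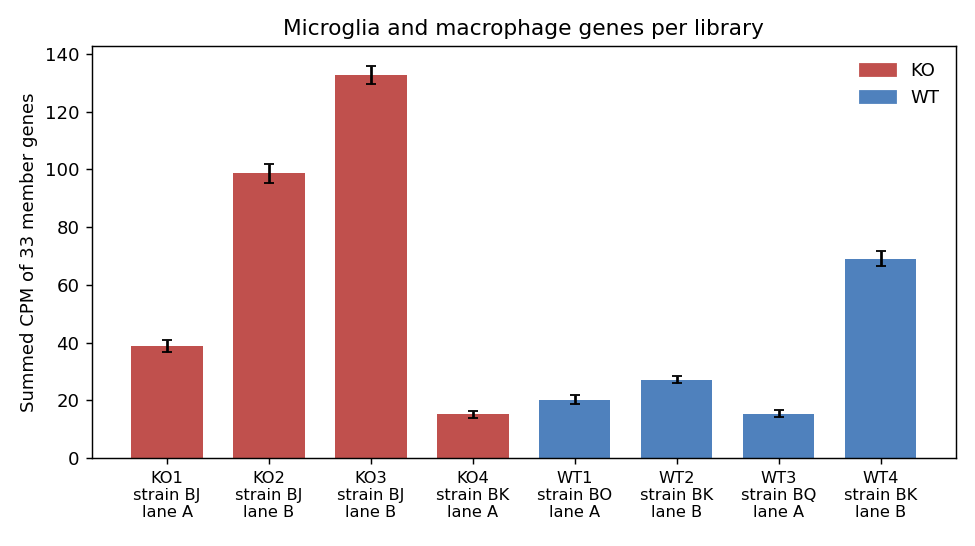
Summed CPM of the 33 microglia and macrophage genes (bar height) in each library, with the strain label and lane under it and 95% Wilson intervals for counting error as error bars. KO bars run from 15.1 to 132.8 CPM and WT bars from 15.4 to 69.1 CPM, so the genotypes overlap.

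The lanes and the strain labels gave different pictures of the genotypes. On lane B, KO2 and KO3 (98.6 and 132.8 CPM) lay above WT2 and WT4 (27.1 and 69.1 CPM), and 22 of the 24 tested members did not overlap there, all higher in KO. Of all tested genes, 30.6% were higher in KO without overlap on that lane. On lane A, KO1 and KO4 (38.7 and 15.1 CPM) enclosed WT1 and WT3 (20.1 and 15.4 CPM), and 6 members were higher in KO without overlap, beside 9.34% of all tested genes, and 1 (Aif1) was lower, beside 7.47%. Within strain label BK, the only one found in both genotypes, KO4 had 15.1 CPM against 27.1 in WT2 and 69.1 in WT4. KO4 was below both for 22 of the 24 tested members, the exceptions being Gpr34 and Irf8, beside 34% of all tested genes. KO4 was run on lane A, and WT2 and WT4 on lane B, so genotype and lane cannot be told apart within BK. The 3 BJ libraries, all KO, spanned 38.7 to 132.8 CPM.

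Levels between genes were compared as mean CPM per kilobase of exon. Cd68, a lysosomal membrane protein of macrophages, was highest at 5.30, followed by the signalling adaptor Tyrobp at 3.81 and the lysozyme gene Lyz2 at 3.72. This order of the means did not hold in every library, since Tyrobp was above Cd68 in KO2 (9.02 against 8.60) and slightly so in KO3, and below both Cd68 and Lyz2 in the other 6. C1qb had 2.23, Mpeg1 1.98, C1qa 1.64, Fcrls 1.46 and Cx3cr1 0.95 on the same scale. Lyz2 has a close copy, Lyz1, and reads shared between such copies were discarded, so its level is uncertain. At the other end, the homeostatic marker Tmem119 had at most 2 counts in any library and the lectin gene Siglech at most 1, both under the 3 counts that a count of 0 allows.

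The members followed one another from library to library. Over the 8 libraries, all 276 pairs of tested members had a Pearson r above 0 on log2 CPM, with a median of 0.90. Tyrobp was closest to the mean of the others, with r of 0.99, whereas Aif1 (0.47) and Irf8 (0.62) were the least alike. These correlations describe 8 libraries that share depth and culture for every gene, and they carry no test. KO3 was the highest library for 23 of the 24 tested members, beside 10.4% of all tested genes, and KO2 was highest for the other, Cd53. KO4 was the lowest library for 10 tested members, beside 12.8% of all tested genes, and WT1 for 8, beside 28.7%. Among the 21 members with more than 3 counts in every library, the median ratio of highest to lowest CPM was 14.5. Over the 15980 tested genes with such counts that median was 1.75, with a 95th percentile of 4.57. Those genes span all levels of expression, and genes matched to the members in level were not compared.

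**Figure D2:**
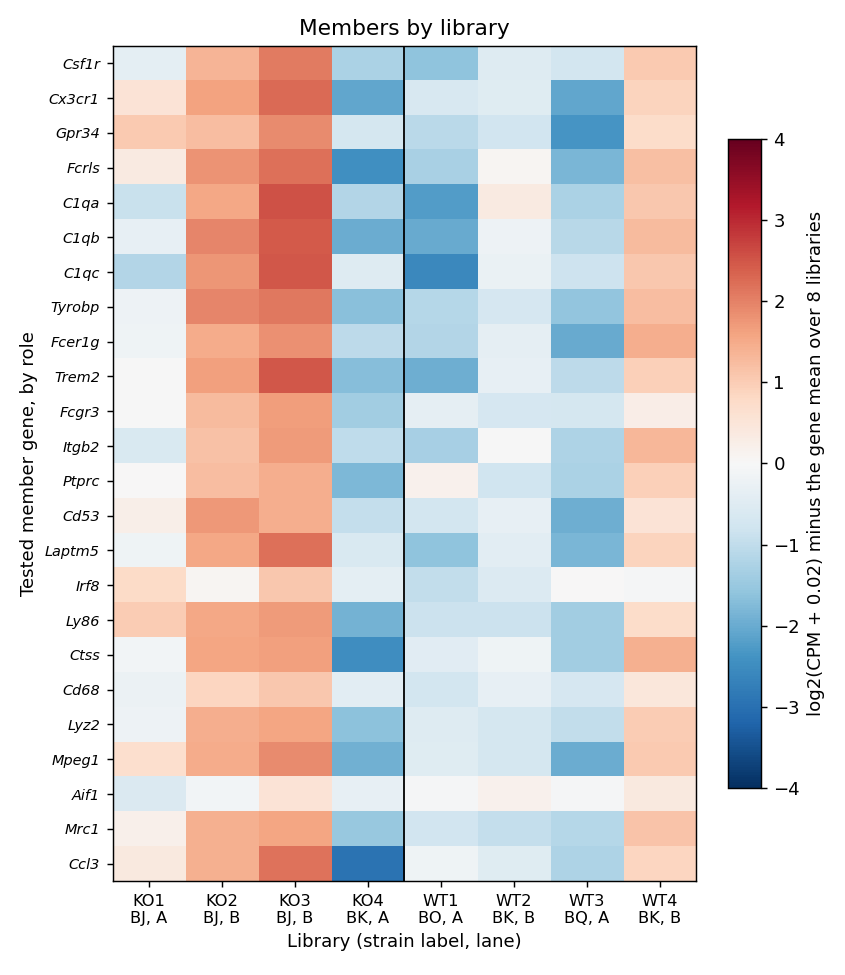
Heat map of the 24 tested members (rows, by role) in the 8 libraries (columns, KO left of the line), coloured by log2(CPM + 0.02) minus the gene's mean over the libraries. KO2, KO3 and WT4 are red and KO4, WT1 and WT3 mostly blue for nearly every gene, with Aif1 and Irf8 the flattest rows.

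Promoters were read for the member genes because these genes moved together and because SPI1, which binds a core motif known as the PU-box, is a factor well known for driving myeloid genes. RefSeq promoter sequences on GRCm38.p6, from 250 bases before to 50 after each start site, were at hand for 22 of the 33 members. The core motif GAGGAA, on either strand, was found in 15 of these 22 genes (68.2%), and in 31.2% of all 27025 genes with a promoter. A composite motif for ETS and IRF factors, GGAA and GAAA with any 2 bases between, was found in 1 member, Cd68, and in 3.16% of all genes. Cx3cr1, Fcer1g, Irf8, Ly86, Lyz2, Mpeg1 and P2ry12 held no GAGGAA in this window. A match is a description of the letters and not of a bound site. The windows around the match are shown for the 8 members with the highest mean CPM that had one before the start site, with the motif or its reverse complement in capitals.
Cd68 (chr11:69666370-69666415, reverse strand): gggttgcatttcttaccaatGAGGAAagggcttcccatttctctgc
Fcrls (chr3:87263643-87263688, reverse strand): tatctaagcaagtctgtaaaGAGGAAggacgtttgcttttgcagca
Laptm5 (chr4:130913258-130913303, forward strand): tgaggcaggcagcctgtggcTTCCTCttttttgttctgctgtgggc
C1qb (chr4:136886205-136886250, reverse strand): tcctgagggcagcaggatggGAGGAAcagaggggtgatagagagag
Trem2 (chr17:48346341-48346386, forward strand): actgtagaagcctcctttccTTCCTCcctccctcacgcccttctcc
Ctss (chr3:95526602-95526647, forward strand): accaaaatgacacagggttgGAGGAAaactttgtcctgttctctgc
C1qc (chr4:136893082-136893127, reverse strand): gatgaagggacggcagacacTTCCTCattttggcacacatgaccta
Cd53 (chr3:106790163-106790208, reverse strand): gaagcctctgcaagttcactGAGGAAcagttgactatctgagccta
The match lay close to the start site in C1qb, Laptm5, Trem2 and Cd53, whose windows end at positions -5, -13, -15 and -14 relative to it. In Cd68 the window begins at position -245, near the edge of the sequence examined.

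Csf1r, which encodes the receptor on which microglial survival depends, had 1.06, 3.64, 5.95 and 0.57 CPM in KO1 to KO4. In WT1 to WT4 it had 0.45, 0.97, 0.84 and 2.90 CPM. KO2, KO3 and WT4 were high, the other 5 libraries were low, and the genotypes overlapped. The log2 fold change of KO over WT (log2FC) was 1.15 with a standard error (SE) of 0.72. By edgeR's quasi-likelihood test the p after Benjamini-Hochberg adjustment was 0.593. The same test and adjustment, over all tested genes, stand behind every adjusted p below.

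Of the 8 homeostatic surface proteins and receptors, 3 had enough counts to be tested. Cx3cr1, the receptor for the neuronal chemokine fractalkine (chr9:120048683-120068296, GRCm38.p6), had 3.16, 6.62, 10.6 and 0.49 CPM in the KO libraries. In the WT libraries it had 1.38, 1.53, 0.50 and 4.08 CPM. KO4 was the lowest, 21.5-fold below KO3, with WT3 close to it, and the genotypes overlapped. Its log2FC was 1.46 with an SE of 0.84 (adjusted p = 0.562). Fcrls, an Fc receptor-like gene used as a microglial marker, reached 486 counts in KO3 and fell to 14 in KO4. Gpr34, a receptor for lysophosphatidylserine, had the largest fitted difference among the 24 tested members, a log2FC of 1.70 ± 0.69 (SE). Its unadjusted p was 0.0374 and its adjusted p 0.447 by the same test. Gpr34 had only 22, 25, 60 and 7 counts in KO and 4, 11, 2 and 19 in WT. The WT3 value was under the 3 counts that a count of 0 allows. The nucleotide receptors P2ry12 and P2ry6 had 0 to 13 counts per library, and Selplg, a ligand of selectins, had 1 to 13. Thus Cx3cr1, Csf1r and Fcrls were present where Tmem119 and Siglech, which also mark homeostatic microglia, were at or near 0. P2ry12, another such marker, was low but not absent, with 13 counts in KO3 and 5 in WT1, where Csf1r had 14.

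The 3 subunit genes of complement C1q, which labels material for clearance, lie side by side on chromosome 4 and varied more than most members. C1qb (chr4:136880126-136886200, promoter window above) had 1.06, 5.20, 7.46 and 0.32 CPM in the KO libraries. The WT libraries had 0.32, 1.16, 0.61 and 3.24 CPM. KO4 and WT1 were level at the bottom, and KO3 was 23.3-fold above WT1. C1qc spanned 38.5-fold and C1qa 30.5-fold between the highest and lowest library, WT1 being lowest for both. Log2FCs between genotypes were 1.29 ± 0.83 for C1qa, 1.43 ± 0.89 for C1qb and 1.53 ± 0.78 for C1qc (SE), with adjusted p from 0.524 to 0.607. Summed over the 3 genes, C1q took 3.19% of the member counts in WT1 and 5.05% in KO1, against 8.85% to 13.7% in the other 6 libraries. KO1 and WT1 are the libraries that stood apart on the surrogate variable, and its part in this difference was not tested.

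TYROBP and FCER1G are adaptors that pass signals from TREM2 and from Fc receptors such as the one encoded by Fcgr3. Tyrobp (chr7:30413782-30417582) had 1.12, 5.09, 5.72 and 0.40 CPM in KO and 0.58, 0.80, 0.42 and 3.05 CPM in WT. KO2, KO3 and WT4 held most of it, and the other 5 libraries stayed at or below 1.12 CPM. The log2FC was 1.34 with an SE of 0.86 (adjusted p = 0.605). The lipid-sensing receptor gene Trem2 was also highest in KO3, KO2 and WT4, with 5.37 CPM in KO3 and 0.22 in WT1, its lowest library, and its log2FC was 1.60 with an SE of 0.82 (adjusted p = 0.535). For Fcer1g the log2FC was 0.91 ± 0.81, and for Fcgr3 it was 1.13 ± 0.59 (SE), neither past the threshold. Fcgr3 spanned 8.84-fold over the libraries, less than the other 3 genes of the group.

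The 2 integrin genes together encode complement receptor 3, known as CD11b and CD18. Itgam (CD11b) had 2 to 15 counts and was not tested. Itgb2 (CD18) had 0.17, 0.64, 0.92 and 0.12 CPM in KO and 0.10, 0.27, 0.10 and 0.71 CPM in WT, and its log2FC was 0.70 with an SE of 0.73 (adjusted p = 0.762). Among membrane proteins found on most leukocytes, Laptm5, a lysosomal protein, was the most abundant by CPM. It had 1.70, 5.61, 8.82 and 1.24 CPM in KO and 0.61, 1.41, 0.52 and 3.53 CPM in WT, with a log2FC of 1.5 with an SE of 0.73 (adjusted p = 0.511). The tetraspanin gene Cd53 was the only tested member highest in KO2, at 2.95 CPM, against 2.44 in KO3. Ptprc, which encodes CD45, ran from 0.12 CPM in KO4 to 1.34 in KO3.

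Of the 2 transcription factors, Spi1 had 1 to 14 counts and was not tested, so the level of PU.1 transcript itself could be read only as 14 counts in KO3 and at most 5 elsewhere. Irf8 did not follow the other members closely. It had 0.80, 0.49, 0.998 and 0.35 CPM in KO and 0.22, 0.31, 0.46 and 0.45 CPM in WT, a span of 4.45-fold. KO1 came next after KO3, unlike for most members, and the genotypes overlapped through KO4. Its log2FC was 0.85 ± 0.38 (SE), with an unadjusted p of 0.0495 and an adjusted p of 0.469.

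Cd14 and Ly86 take part in the response to bacterial lipopolysaccharide. Ly86 (MD-1) had 0.86, 1.27, 1.42 and 0.10 CPM in KO and 0.22, 0.22, 0.15 and 0.71 CPM in WT. Its log2FC was 1.48 with an SE of 0.73 (adjusted p = 0.511). Cd14, the lipopolysaccharide co-receptor, had 0 to 21 counts, with 20 in KO2 and 21 in KO3.

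The genes of lysosomes, phagocytosis and killing gave the most counts. Mpeg1, which encodes the pore-forming protein perforin-2 (chr19:12460770-12465285), had 9.20, 16.0, 21.4 and 1.48 CPM in KO1 to KO4 and 4.03, 3.51, 1.43 and 11.7 CPM in WT1 to WT4. KO4 and WT3 were level at the bottom. Its log2FC was 1.20 with an SE of 0.79 (adjusted p = 0.612). Cd68 had 5.06, 10.8, 12.6 and 4.50 CPM in KO and 3.62, 4.75, 3.73 and 8.21 CPM in WT, so it varied 3.48-fold where Mpeg1 varied 15.0-fold. In the low libraries it therefore made up more of the member counts, with 29.8% in KO4 and 24.3% in WT3 against 9.48% in KO3. The cathepsin gene Ctss spanned 19.3-fold and had a log2FC of 0.62 with an SE of 0.83 (adjusted p = 0.824). For Lyz2 the log2FC was 0.82 with an SE of 0.70 (adjusted p = 0.703).

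**Figure D3:**
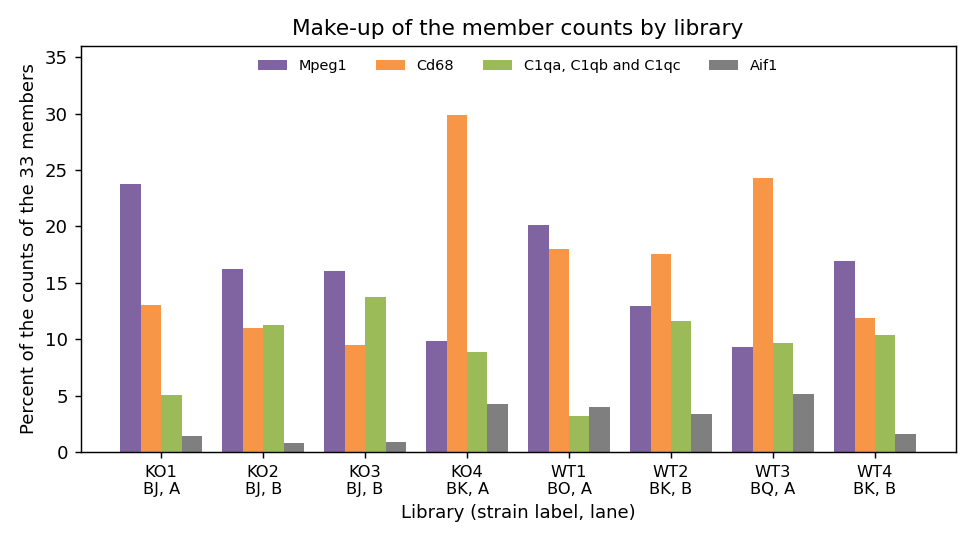
Percent of the counts of the 33 members (y axis) given by Mpeg1, Cd68, the 3 C1q genes and Aif1 in each library, with the strain label and lane under it. Cd68 makes up 29.8% in KO4 and 9.48% in KO3, and C1q is lowest in WT1 (3.19%) and KO1 (5.05%).

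Aif1, which encodes the actin-binding protein IBA1 used to stain microglia, was the member least like the rest. It had 0.55, 0.75, 1.21 and 0.64 CPM in KO and 0.80, 0.92, 0.80 and 1.08 CPM in WT, a span of 2.21-fold. It was the only tested member with a lower level in KO, at a log2FC of -0.21 with an SE of 0.26 (adjusted p = 0.811). Its share of the member counts ran from 0.76% in KO2 to 5.18% in WT3. Mrc1, the mannose receptor CD206 that marks macrophages at the borders of the brain more than microglia, had 0.46, 1.1, 1.21 and 0.12 CPM in KO and 0.22, 0.19, 0.17 and 0.90 CPM in WT. It thus moved with the microglial genes, with r of 0.97 to the mean of the other members. The chemokine gene Ccl3 had 0.43, 0.90, 1.53 and 0.02 CPM in KO and 0.29, 0.22, 0.13 and 0.61 CPM in WT, the KO4 value being 1 count. Ccl4, its neighbour, had 0 to 62 counts. The RefSeq spans of both genes overlap on chromosome 11. The counts used Ensembl genes and the use of strand is not stated, so whether reads from the overlap were dropped is unknown.

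Across the members, no genotype difference passed the adjusted threshold of 0.05. By edgeR and by limma-voom 0 of 24 tested members passed, beside 0.0492% of all tested genes called by each. By DESeq2 none passed, beside 1.03% of all tested genes. DESeq2 gave no adjusted p for Gpr34, Fcer1g, Fcgr3, Itgb2, Ptprc, Cd53, Irf8, Ly86, Aif1, Mrc1 and Ccl3, so these could not pass by it. With an unadjusted p under 0.05, 2 members (Gpr34 and Irf8) were higher in KO and 0 were lower, beside 4.87% and 5.75% of all tested genes. By DESeq2 and limma-voom the members under that p numbered 4 and 1 of 24, beside 9.6% and 10.6% of all tested genes. In CPM, 0 members were without overlap between the genotypes, beside 1.54% of tested genes higher and 0.86% lower in KO. The fitted difference was above 0 for 23 of 24 tested members, with a median log2 fold change of 1.23, whereas the median over all tested genes was 0.01 and 53.8% of them were above 0. The members share their libraries and moved together, so this count is 1 pattern and not 23. Standard errors were wide, with a median of 0.74 on the log2 scale against 0.11 over all tested genes. Those genes were not matched to the members in level. Filters on low counts can favour genes that are high in some libraries, and with no filter 31 of 33 members were above 0, with a median of 1.12.

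These values moved with the libraries and with the model. Without KO3 the median log2 fold change of the tested members was 0.58, and without WT4 it was 1.85. It was 0.18 when KO1 and WT1 were both left out, and 0.21 with 2 surrogate variables in place of 1, with 19 of 26 and 18 of 24 tested members above 0. Leaving out KO1 and WT1 lowered this fitted median, for which the surrogate variable was estimated anew, but not the log2 ratio of summed CPM, which was 1.14 without them and 1.12 with all libraries. The number of members with an unadjusted p under 0.05 was 19 of 25 without KO4 and 14 of 24 without WT4, beside 9.72% and 13.3% of all tested genes, against 2 of 24 with all libraries, and none passed the adjusted threshold in either case. On lane B alone, with 2 libraries of each genotype, Cd53 and Fcgr3 rose past the adjusted threshold (log2 fold changes of 1.43 and 1.65, adjusted p = 0.0463 and 0.0375), beside 0.588% of all genes tested on that lane. On lane A alone no member passed, 15 of 20 were above 0 and the median was 0.59. The difference between the lanes was tested as a genotype by lane interaction over all genes, and its lowest p among the members was 0.0639, for Fcgr3, with an adjusted p of 1.0. With strain label as a term, which leaves the comparison to 1 KO library, KO4 on lane A, against WT2 and WT4 on lane B, all 24 tested members were below 0, with a median log2 fold change of -1.99. Lane and genotype cannot be told apart there, and the spread of the lone library was taken from the others.

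**Figure D4:**
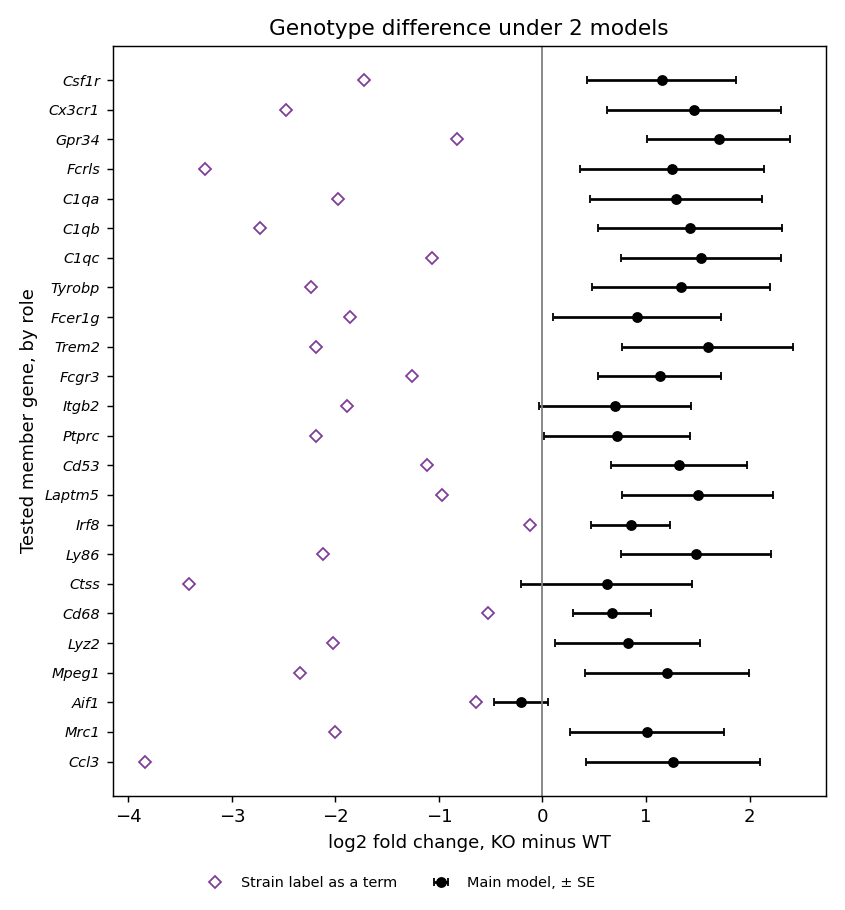
Log2 fold change between KO and WT (x axis) of the 24 tested members (y axis, by role), from the main model (filled, ± SE) and from a model with strain label as a term (open, no error shown). All but Aif1 lie above 0 in the main model and all 24 lie below 0 with the strain label, where the KO side is the single library KO4, and no value passed the adjusted threshold in the main model.

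Genes outside the members whose levels were most like theirs were sought over the 8 libraries, by Pearson r of log2 CPM with the mean of the tested members. The 10 most alike of 16248 were Neat1 (0.99), Cd52 (0.99), Clec7a (0.98), Gpnmb (0.98), Tlr13 (0.97), C3ar1 (0.97), Tgfbr2 (0.97), Tmem106a (0.97), Traf5 (0.97) and Pnldc1 (0.97). Of the 50 most alike, 7 belonged to the list of other microglia and macrophage genes, which had 36 tested genes among the 16248 compared. Also among the 50, and named for that reason, were Clec7a, Gpnmb, Ctsb, Spp1 and Cd9, of the lipid and disease-associated list below. The border macrophage gene Stab1 was among them too. Gpnmb, a lysosomal glycoprotein of activated macrophages, had 4.17, 18.9, 22.5 and 2.5 CPM in KO and 2.30, 4.35, 1.70 and 13.8 CPM in WT. Neat1, a nuclear long non-coding RNA, ran only from 5.78 CPM in KO4 to 19.5 in KO3, in nearly the same order of libraries.

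A list of 50 further microglia and macrophage genes had 36 tested genes, of which 30 were above 0 and none passed the adjusted threshold or an unadjusted p under 0.05. Their median log2 fold change was 0.40. Among its abundant genes by CPM were Coro1a (41.8), Sall1 (18.6) and Csf2ra (13.5), and Coro1a and Csf2ra did not follow the members, with r of -0.08 and 0.06. Cd84 and Adgre1 (F4/80), named here after their values were seen, did follow them, with r of 0.96 and 0.88. Adgre1, the classical macrophage marker, had 0.37 CPM in KO4 and 0.52 in WT3 against 5.45 in KO3.

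Of 16 genes raised in lipid-handling and disease-associated microglia, 14 were tested, 13 were above 0 and none passed the threshold. The list was led by Ctsb (402), Apoe (234), Ctsd (136) and Fabp5 (112 CPM), which other cells of such cultures also express, and their r with the members was 0.94, 0.45, 0.69 and -0.67 in that order. The mean log2 CPM of the 14 tested genes had r of 0.99 with the members. Clec7a, the receptor dectin-1, had 3.17 CPM in KO3 and 0.25 in KO4. Of 10 ligands that act on microglial receptors, 8 were tested, 2 were above 0 and none passed the threshold. Tgfb2, named after its values were seen, and Cd200 were lower in KO. Their unadjusted p by the edgeR test was 0.0087 and 0.0381 (adjusted p = 0.362 and 0.447). Beside them, 5.75% of all tested genes were lower in KO with an unadjusted p under 0.05. Cd200, a neuronal ligand that restrains microglia, was the most abundant, at 458 to 647 CPM. Csf1, named after its values were seen, had 6.78, 12.5, 14.3 and 5.59 CPM in KO and 5.38, 8.21, 5.06 and 10.4 CPM in WT, in step with the members (r = 0.96).

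Markers of other cells were summed in the same way. Blood leukocyte genes came to 0.87 CPM in KO4, the lowest library for the members, and to at most 0.24 CPM elsewhere. The neutrophil genes S100a8, S100a9, Ngp and Ltf, named after their values were seen, had 6 to 9 counts in KO4 and at most 1 in any other library, and the monocyte receptor gene Ccr2 had 0 counts in all 8. Erythroid genes were also highest in KO4, at 0.69 CPM against at most 0.32 elsewhere. Of the genes that define border macrophages, Cd163 had 0 to 4 counts, Lyve1 0 to 8, Pf4 0 to 12 and Cbr2 0 to 1, while Stab1 (1.15 to 16.6 CPM, r of 0.94 with the members) and Dab2 (1.85 to 5.92 CPM, r of 0.57) made up most of that list. Dab2 was the larger of them in KO1, KO4, WT1 and WT2, and Stab1 in the other 4. None of the 4 tested genes of that list passed the threshold. Excitatory neuron genes held 4519 to 5272 CPM and varied 1.17-fold, against 8.81-fold for the members.

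Astrocyte genes followed the members in part. Their summed level was 1507, 1668, 1843 and 949 CPM in KO and 1583, 1434, 1011 and 1309 CPM in WT, so that KO4 and WT3 were lowest here too, but WT1 lay above WT4, and 8 of the 10 tested genes were above 0 with none past the threshold. The intermediate filament gene Gfap, singled out after its values were seen, had 73.8, 112, 235 and 7.12 CPM in KO and 32.9, 12.5, 9.90 and 56.7 CPM in WT, with r of 0.90 to the members. The far more abundant transporter genes Slc1a3 and Slc1a2 had r of 0.47 and 0.32, and Slc1a3 ran from 397 to 692 CPM. Mural cell genes had summed levels of 28.6 to 65.9 CPM, 5 of 6 tested genes were above 0 and none passed. Their mean log2 CPM had r of 0.95 with the members, but Cspg4, the most abundant of them and shared with the oligodendrocyte lineage, had r of 0.02, and the smooth muscle gene Acta2 had at most 0.35 CPM. Endothelial genes came to 4.91 to 12.7 CPM, with Cldn5 at most 0.04 CPM, and none of the 4 tested passed the threshold. Fibroblast genes held 253 to 447 CPM (6 tested), but only 5.54 to 34.1 CPM without Pdgfra, which also marks the oligodendrocyte lineage. Oligodendrocyte lineage genes held 550 to 707 CPM (9 tested), neural progenitor genes 883 to 1206 (10 tested) and interneuron genes 205 to 365 (10 tested). None of these genes, nor of the 10 tested excitatory neuron genes, passed the threshold. With an unadjusted p under 0.05 by the edgeR test, 1 oligodendrocyte lineage and 1 interneuron gene were higher in KO and 1 excitatory neuron gene was lower. Of all tested genes, 4.87% were higher and 5.75% lower under that p. The part of these cell types in the differences of the microglia genes was not tested.

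**Figure D5:**
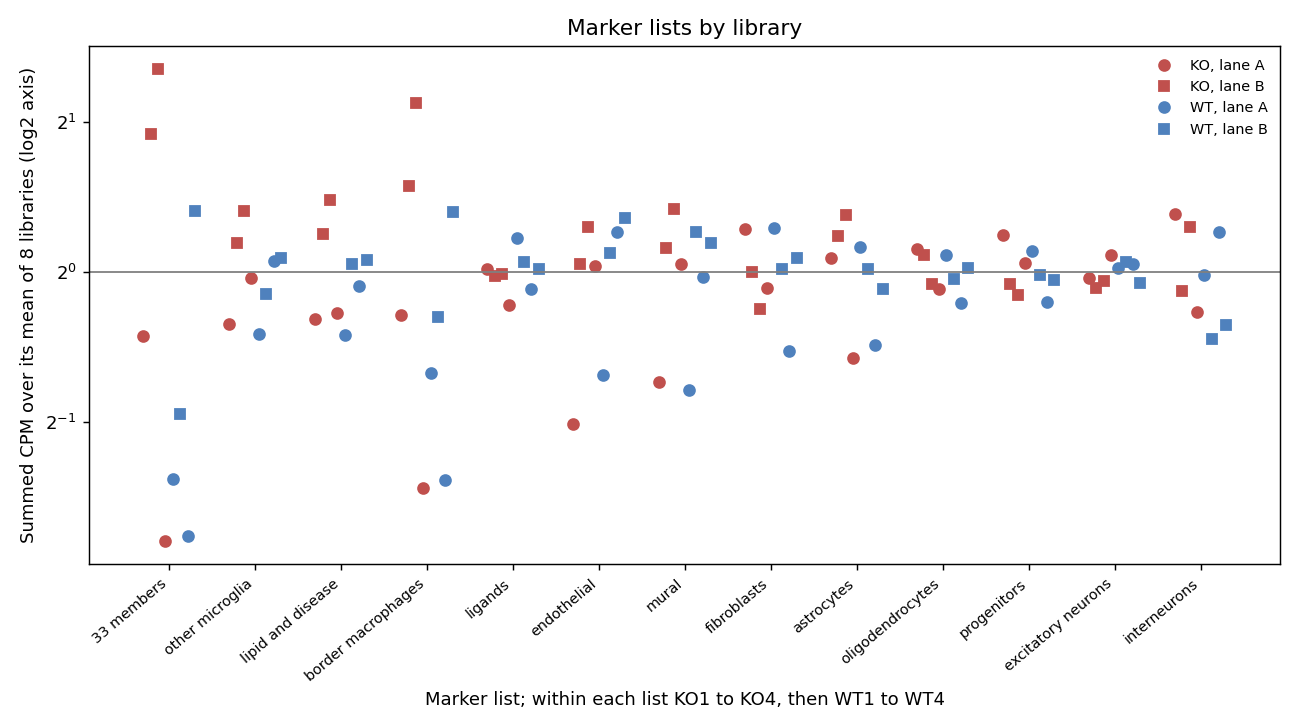
Summed CPM of 13 marker lists divided by each list's mean over the 8 libraries (log2 axis), with KO in red, WT in blue, circles for lane A and squares for lane B. Of the 13 lists, the 33 members spread most, from KO3 at 132.8 CPM to KO4 at 15.1 CPM. Border macrophage genes follow a like order, and excitatory neuron genes stay within 1.17-fold. Blood leukocyte and erythroid genes, at most 0.87 and 0.69 CPM, are not drawn.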

How the data were processed

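Poly-A RNA of 4 KO and 4 WT cultures was sequenced, and the authors deposited raw counts for each Ensembl gene. Per their methods, reads were trimmed with Cutadapt 1.10, ribosomal reads were discarded, the rest were aligned to mm10 with STAR 2.5.3a, and reads with a single alignment were assigned to genes by HTSeq-count 0.6.1p1 in union mode. Reads shared by near-identical copies or overlapping genes are thus lost. The use of strand is not stated, and read length and layout differ between labels and methods.

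The tests were run with edgeR 4.0.16 under R 4.3.3 (filterByExpr, TMM, robust quasi-likelihood F test) with genotype and 1 surrogate variable from sva 3.50.0, after the authors' use of surrogate variables with DESeq2. P-values were adjusted by Benjamini-Hochberg over all tested genes, with a threshold of 0.05. The SE is the log2 fold change divided by the square root of F. CPM are counts scaled to the library total, and log2 CPM used a prior count of 1. A count of 0 allows 3 counts. Wilson intervals and this floor cover counting error only. Exon lengths came from an older GENCODE annotation, gene positions and promoters from RefSeq on GRCm38.p6.

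Alternatives used other surrogate variables, lane, strain label or replicate number as a term, other scalings and filters, DESeq2 1.42.0, limma-voom (limma 3.58.1), each lane, and all libraries but one or a pair. The procedure was also run on simulated counts, whose spread between libraries was capped at a low value. Genes that vary as widely as the members were not covered by it. Symbols were matched for 23260 identifiers. The members and the other gene lists were chosen with earlier results of these data known. Members were named by role with library values for the most abundant by CPM of each role, from other lists up to 4 of the most abundant, and the 10 genes most like the members. Genes outside that rule are marked, apart from markers given only to show that they are near 0. Replicate numbers of the labels do not pair the cultures.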

Additional observations from a re-analysis of the deposited data

Results flagged for a closer look

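In the 4 WT libraries, WT4 lay far above the other 3 for 5 member genes, the gap to the next library, as a share of the whole range, being above Dixon's 95% critical value for 4 values. Tyrobp reached 3.05 CPM in WT4, against 0.42 to 0.80 CPM elsewhere in WT. Ly86 had 0.71 CPM there against 0.15 to 0.22. Lyz2 had 7.40 CPM against 1.83 to 2.53. Mrc1 had 0.90 CPM against 0.17 to 0.22. Ccl4 had 0.50 CPM, or 19 counts, against 0 to 0.08. In all, 64 groups of 4 values were examined, chance flags about 1 in 20 of such groups (3.2 here), and the members are not independent of one another. No group of 4 KO values and no summed level was past that value, and no interaction of genotype and lane passed the adjusted threshold.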

How the results depend on the processing

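No member passed the adjusted threshold with any alternative model, filter, scaling or left-out library except lane B alone, where 2 did (Fcgr3, log2 fold change 1.65, and Cd53, 1.43). Members to which DESeq2 gave no adjusted p, among them Gpr34, Irf8, Cd53 and Fcgr3, could not pass by it. All genes past the adjusted threshold numbered 8 in the main analysis, 4 with no surrogate variable, 4 with 2 of them, 4 with lane as a term, 1 with strain label as a term, 45 with no filter, 168 with DESeq2, 3 without KO1 and WT1, 0 with lane A alone and 99 with lane B alone. Leaving out 1 library at a time gave 3 to 91, the highest without WT3. Members with an unadjusted p under 0.05 are given with the share of all tested genes under that p. They numbered 2 (10.6%), then 1 with no surrogate variable (2.52%), 8 with lane (2.94%), 5 with strain label (1.91%), 0 of 11 with the filter of at least 1 CPM in 4 libraries (11%), 4 with DESeq2 (9.6%), 1 with limma-voom (10.6%), 1 without KO1 and WT1 (5.66%), 1 of 20 with lane A alone (0.591%) and 15 of 28 with lane B alone (11.2%). Leaving out 1 library gave 0 to 19, the highest without KO4 (9.72%). The 5 with strain label all had log2 fold changes below 0, in a model that comes down to KO4 against WT2 and WT4. Its KO side is 1 library, assumed to vary like the others and on the other lane, so its p-values do not compare the genotypes.

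With replicate number as a replicate block, 3 genes passed, and 0 members had an unadjusted p under 0.05, beside 7.17% of all genes. Same-numbered libraries correlated at 0.79, 0.01, 0.24 and -0.01 in their deviations from the genotype means, and not every library correlated best with its own number, so the numbers were not taken to pair the cultures.

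The median log2 fold change of the members was 1.23 and ran from 0.58 to 1.85 with 1 library left out. It was 0.21 with 2 surrogate variables and 0.18 without KO1 and WT1, and it reversed to -1.99 with strain label as a term. That of the other microglia genes was 0.40, ran from 0.10 to 0.82 with 1 library left out, and reversed to -0.0087 with 2 surrogate variables and to -0.75 with strain label. The log2 ratio of summed CPM was 1.12, ran from 0.63 to 1.78 with 1 library left out, came to 0.60 with only lane A, 1.27 with only lane B and 1.14 without KO1 and WT1, and was -1.67 within strain label BK.

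Single members reversed as follows, in log2 fold changes. With strain label as a term, which rests on KO4 against WT2 and WT4, they were Csf1r -1.72, Cx3cr1 -2.47, Gpr34 -0.83, Fcrls -3.26, C1qa -1.98, C1qb -2.73, C1qc -1.06, Tyrobp -2.23, Fcer1g -1.86, Trem2 -2.19, Fcgr3 -1.26, Itgb2 -1.89, Ptprc -2.19, Cd53 -1.12, Laptm5 -0.97, Irf8 -0.12, Ly86 -2.12, Ctss -3.41, Cd68 -0.52, Lyz2 -2.02, Mpeg1 -2.34, Mrc1 -2.01 and Ccl3 -3.84. With 2 surrogate variables they were Fcer1g -0.027, Itgb2 -0.23, Ptprc -0.17, Ctss -0.47 and Lyz2 -0.10. On lane A they were Fcgr3 -0.044, Ptprc -0.27, Ctss -0.050 and Lyz2 -0.049. Without KO1 and WT1 they were Fcrls -0.26, Fcer1g -0.046, Itgb2 -0.22, Ptprc -0.037, Ctss -0.55 and Lyz2 -0.079. The cause of these reversals was not tested beyond the make-up of each comparison. All 9 members removed for low counts entered the analysis with no filter, where none passed, and some of them passed the filter where libraries were left out (24 to 26 members tested) or on lane B alone (28).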
